A study of Mus musculus with 9 samples.

Results

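The carnitine synthesis and shuttle genes are a set of 9 listed genes. Tmlhe, Aldh9a1 and Bbox1 encode enzymes of carnitine synthesis, and Slc22a5 encodes a carnitine transporter of the cell membrane. Cpt1a, Cpt1b, Slc25a20, Cpt2 and Crat encode the mitochondrial carnitine shuttle and carnitine acetyltransferase. The genes were found by their symbols in a table of 33924 genes. Of the 9 genes, 8 were present, and all 8 passed the filter on low counts that left 17079 genes for testing; Tmlhe is not analysed here. The set was chosen by measured values of these same libraries, the high level of Bbox1 in the Arid2-labelled group. The difference between the Arid2-labelled and wild-type libraries is therefore given as a description of the chosen genes, with no test.

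The libraries are bulk RNA sequencing of flash-frozen mouse thyroids in 3 genotype groups of 3 libraries each: Arid2 KO, Smarcb1 KO and WT. Both targeted genes encode parts of the SWI/SNF complexes, which move nucleosomes along DNA, and the comparisons ask how transcript levels differ in thyroids of each knockout. The labels give no Cre driver, strain, age or sex, and no treatment, and they leave unsaid whether each library is a different mouse; every p-value therefore covers the spread between libraries and no more. Replicate numbers below only name the libraries.

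Carnitine is a small molecule that carries fatty acids into mitochondria. Cells make it from trimethylated lysine, in a chain of steps that Tmlhe opens, Aldh9a1 takes part in and Bbox1 closes, or take it up from blood through Slc22a5. Cpt1 enzymes at the outer mitochondrial membrane join long-chain acyl groups to carnitine, the carrier Slc25a20 exchanges the product for free carnitine across the inner membrane, and Cpt2 hands the acyl group back to coenzyme A for beta-oxidation. Crat does the same exchange for acetyl and other short acyl groups. In rodents, carnitine is made mainly in the liver, and brown fat and muscle are rich in the shuttle.

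Total counts ran from 61179297 to 89553766 in the Arid2-labelled libraries, from 38644867 to 41362640 in the Smarcb1-labelled libraries and from 33666251 to 34045321 in the wild-type libraries. All levels are CPM, read counts scaled to the size of each library with TMM factors, and all folds are log2 fold changes of the same edgeR fit. Arid2 stood at 94.6, 77.7 and 59.9 CPM in Arid2-labelled thyroids, against 68.9, 75.0 and 67.8 CPM in wild-type thyroids, so its transcript was not lower there as a group and the groups are called by their labels. Smarcb1 stood at 47.5, 53.7 and 59.4 CPM in Smarcb1-labelled thyroids, against 65.9, 71.7 and 69.3 CPM in wild type. Tg, the gene of thyroglobulin, was abundant in all 9 libraries, as in thyroid. Several libraries also carried markers of neighbouring tissue. The summed level of 6 brown fat markers was 398.1, 499.4 and 839.5 CPM in Arid2-labelled thyroids, 65.6, 290.8 and 229.3 CPM in Smarcb1-labelled thyroids, and 176.2, 167.7 and 1058.2 CPM in wild-type thyroids. Thymus markers summed to 831.5 CPM in replicate 1 of the Arid2-labelled group and to 119.7 CPM in replicate 2 of the Smarcb1-labelled group, and stayed under 1 CPM in the others. The 3 parathyroid markers summed to 10.6 to 1581.3 CPM in the Arid2-labelled group, 6091.6 to 16992 CPM in the Smarcb1-labelled group and 8.16 to 4319.7 CPM in wild type. Xist, transcribed from the inactive X chromosome, was at 808.9 CPM in Smarcb1-labelled replicate 3 and under 3 CPM in every other library. Ddx3y, a gene of the Y chromosome, had 0 reads in that library and at least 43.4 CPM in every other one. In bulk tissue, fewer cells of a type and less RNA per cell cannot be told apart.

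Bbox1, the enzyme that makes carnitine from gamma-butyrobetaine, was the one carnitine gene with a large difference from wild type in the Arid2-labelled libraries. Its Arid2-labelled level was 18.2 CPM in replicate 1, 22.0 CPM in replicate 2 and 11.7 CPM in replicate 3, its Smarcb1-labelled level 4.86, 4.98 and 1.41 CPM in the same order, and its wild-type level 1.88, 0.740 and 1.81 CPM. The lowest Arid2-labelled library was above every library of the other groups, whereas Smarcb1-labelled replicate 3 lay inside the wild-type range. These levels rested on 1653, 1405 and 729 reads in Arid2-labelled thyroids, 191, 220 and 52 in the Smarcb1-labelled libraries and 62, 26 and 61 in the wild-type libraries. Group means were 17.3 ± 5.20 CPM in the Arid2-labelled, 3.75 ± 2.03 CPM in the Smarcb1-labelled and 1.48 ± 0.639 CPM in the wild-type group (SD, n = 3 each).

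As a description, the log2 fold change of Bbox1 for Arid2-labelled over wild type was 3.55 (SE 0.54), an 11.7-fold difference. Over 20 alternative fits it ran from 3.14 to 3.76. For Arid2-labelled over Smarcb1-labelled it was 2.20 (SE 0.51), a 4.61-fold difference, which also rests on the libraries that led to the choice of the gene. Smarcb1-labelled over wild type is the comparison of Bbox1 that the choice did not use directly, although it shares the wild-type libraries with it. There the log2 fold change was 1.35 (SE 0.51, 95% interval 0.19 to 2.50), and it did not pass the test (adjusted p = 0.127, edgeR's quasi-likelihood test with Benjamini-Hochberg adjustment over all 17079 genes). DESeq2's Wald test put the same difference past the threshold (adjusted p = 0.0374). With single libraries left out, the log2 fold change ran from 1.02 to 1.73. It was highest without Smarcb1-labelled replicate 3, the library with high Xist. Bbox1 had 1.12 as its smallest root-mean-square distance in log2(CPM + 1) deviations to any other carnitine gene. Its own deviations had a root mean square of 1.29. The distance is not scaled to how much a gene varies, so it cannot show whether a less variable gene followed Bbox1.

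**Figure D1:**
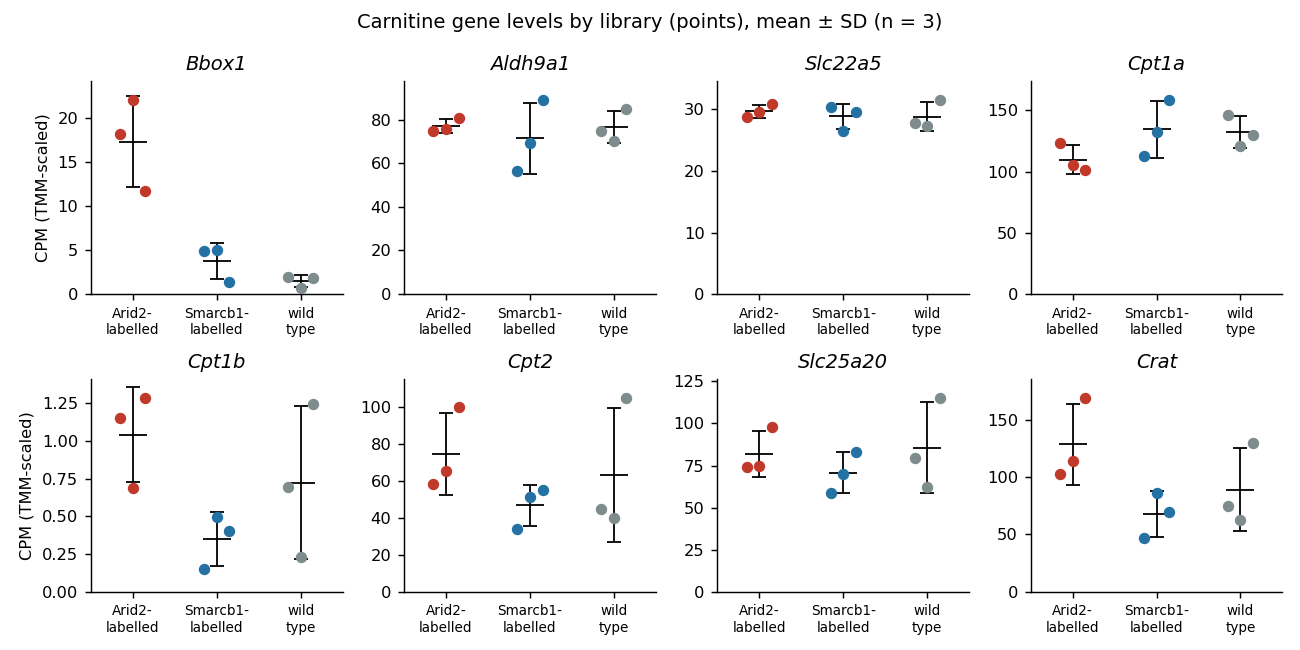
Levels of the 8 carnitine genes in TMM-scaled CPM (linear y axes from 0), one panel a gene, with each library as a point and the mean ± SD of the 3 libraries of each group. Bbox1 is at 11.7 to 22.0 CPM in Arid2-labelled thyroids and at most 4.98 CPM elsewhere, Slc22a5 is level, and Cpt2 and Crat are high in replicate 3 of the Arid2-labelled and wild-type groups.

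Liver and, in some mammals, kidney are the tissues the enzyme is best known from, and their markers were read in the same libraries. The 6 hepatocyte markers summed to 100.2, 87.9 and 119.2 CPM in Arid2-labelled thyroids, 65.7, 48.3 and 141.5 CPM in Smarcb1-labelled thyroids, and 120.3, 38.8 and 114.6 CPM in wild-type thyroids. Nearly all of this was Cyp2e1, a cytochrome that mouse fat also expresses, at 38.4 to 141.2 CPM over the 9 libraries with overlapping groups. Of the other hepatocyte markers, Alb was at most 0.0679 CPM, Apoa1 at most 0.0991 CPM, Fgb at most 0.0226 CPM, Serpina1a at most 0.119 CPM and Ttr at most 0.353 CPM in any library. The 6 kidney tubule markers summed to at most 0.226 CPM, with Slc34a1 at 0 counts in all 9 libraries and Umod at no more than 0.127 CPM. Arid2-labelled and wild-type libraries did not overlap for 25.5% of all tested genes, and 0.556% of all tested genes passed edgeR's test. For 4 of 4 airway secretory markers, every Arid2-labelled library lay above every other library, as for Bbox1. Of these 4 markers, 3 were past the threshold of edgeR's test for Arid2-labelled over wild type. The list was chosen with earlier results of these data known, so these counts are a description and no test. Their sum was 25.2, 22.5 and 60.2 CPM in Arid2-labelled thyroids, 0.763, 4.62 and 0.487 CPM in Smarcb1-labelled thyroids and 0.607, 1.17 and 1.19 CPM in wild-type thyroids. Their leading gene, Scgb3a1, was at 13.1 to 23.0 CPM in Arid2-labelled thyroids and at no more than 0.769 CPM in the rest, and Bpifb1 was at 0.913 to 1.99 CPM in Arid2-labelled thyroids and no more than 0.0890 CPM in the rest. Within the Arid2-labelled group, the airway sum, Scgb3a1, Scgb1a1 and Muc5b were highest in replicate 3, where Bbox1 was lowest. Bpifb1, at 0.913, 1.99 and 1.57 CPM in these libraries, was highest in replicate 2, where Bbox1 was highest too. The part of airway-type cells in the level of Bbox1 was not tested.

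The genes whose pattern was most like that of Bbox1 were ranked by the root-mean-square difference of log2(CPM + 1) deviations from the 9-library mean, over 12694 eligible genes. The nearest 5 were Sftpa1 (0.44), Sftpd (0.51), Myh2 (0.53), Sftpb (0.62) and Bub1b (0.68). Sftpa1, Sftpd and Sftpb encode surfactant proteins of the lung, Myh2 a myosin heavy chain of fast muscle and Bub1b a kinase of the mitotic checkpoint. Sftpa1 stood at 5.11, 13.1 and 7.63 CPM in Arid2-labelled thyroids, 2.75, 3.06 and 0.785 CPM in Smarcb1-labelled thyroids, and 0.0910, 0.256 and 0.119 CPM in wild-type thyroids. Sftpd stood at 2.76, 10.4 and 5.19 CPM in Arid2-labelled thyroids, 0.611, 0.815 and 0.406 CPM in Smarcb1-labelled thyroids, and 0.0910, 0.0569 and 0.0297 CPM in wild-type thyroids. Both shared with Bbox1 its peak in Arid2-labelled replicate 2 and its low value in Smarcb1-labelled replicate 3 within that group. Within the Arid2-labelled group, both were lowest in replicate 1, whereas Bbox1 was lowest in replicate 3. Sftpb also peaked in Arid2-labelled replicate 2, but within the Smarcb1-labelled group, at 1.22, 2.31 and 1.57 CPM, it was lowest in replicate 1. These genes were chosen for their likeness, so no test is given for them. The 10 skeletal muscle markers, Myh2 among them, summed to 1134.8, 442.9 and 1844.1 CPM in Arid2-labelled thyroids, 361.2, 1099.3 and 98.7 CPM in Smarcb1-labelled thyroids, and 1147.4, 24.4 and 449.4 CPM in wild-type thyroids. These sums overlapped between groups, and 10 of 10 markers had a positive log2 fold change for Arid2-labelled over wild type. None was past edgeR's test, and 1, Myh2, had an unadjusted p under 0.05, as did 2541 of all 17079 tested genes. Myh2 was at 4.80, 9.61 and 8.56 CPM in Arid2-labelled thyroids, 5.55, 2.35 and 0.433 CPM in Smarcb1-labelled thyroids, and 1.85, 0.0285 and 0.712 CPM in wild-type thyroids. With the muscle level as a covariate, the log2 fold change of Bbox1 for Arid2-labelled over wild type was 3.14, and Bbox1 was no longer past the threshold. Without a covariate, the log2 fold change of Bbox1 was 3.55 (SE 0.54). It was 3.56 with the brown fat covariate and 3.55 with the parathyroid covariate, so of the marker covariates muscle alone lowered it. The loss of the call, in contrast, was not particular to muscle. The call was also lost with the brown fat covariate, without both thymus-marked libraries, and without any single Arid2-labelled or wild-type library. The part of muscle in the level of Bbox1 was not tested.

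**Figure D2:**
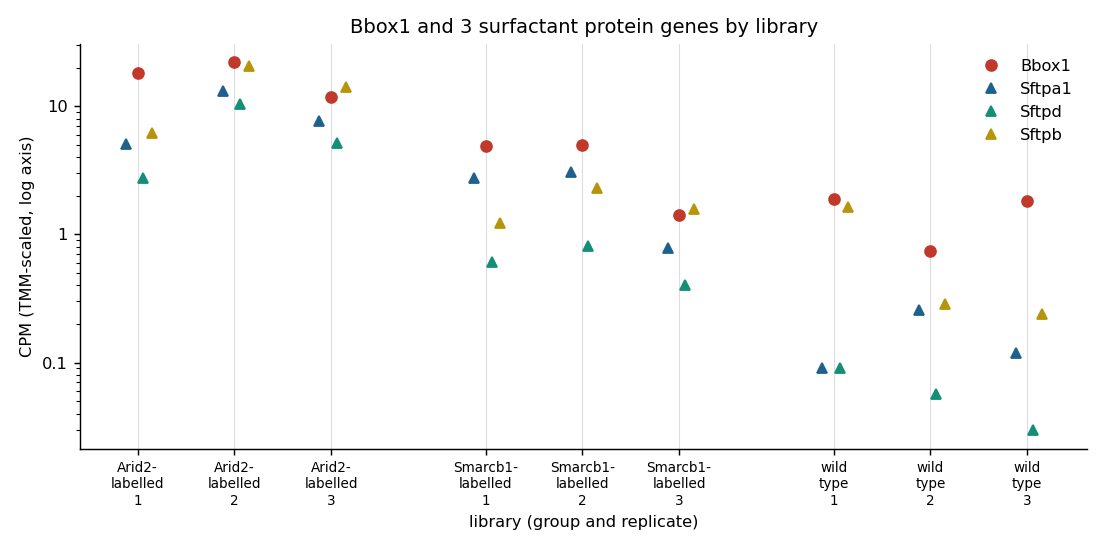
Level in TMM-scaled CPM (log axis) of Bbox1 and of the surfactant protein genes Sftpa1, Sftpd and Sftpb in each of the 9 libraries, one column of points a library. All 4 genes are highest in the Arid2-labelled libraries, and Sftpa1 and Sftpd are below 0.3 CPM in wild type.

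The genes beside Bbox1 on chromosome 2 were read as a check of the region, with 3 protein-coding genes on each side in the RefSeq annotation of GRCm38. On one side lie Lin7c, Lgr4 and Ccdc34, and on the other Fibin, Slc5a12 and Ano3. For Arid2-labelled over wild type, the log2 fold changes were -0.22 for Lin7c, -0.09 for Lgr4, 0.18 for Ccdc34, -0.06 for Fibin and -1.62 for Ano3, and none passed the test (edgeR adjusted p from 0.199 to 0.930). Slc5a12, a monocarboxylate transporter gene, had 1 read in each of a pair of libraries and 0 in the others, and was not tested. None of the tested neighbours was higher by more than 0.18 in that comparison. Ano3, which encodes a membrane protein of the anoctamin family, was lower in the Arid2-labelled than in the Smarcb1-labelled libraries (log2 fold change -2.59, SE 0.52, edgeR adjusted p = 0.0166, at 0.138 CPM against 0.848 CPM on average), a call kept in 15 of 20 alternatives.

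Of the 8 carnitine genes, 1 (Bbox1) was past an adjusted p of 0.05 for Arid2-labelled over wild type, where 0.556% of all tested genes were, and 1 (again Bbox1) had Arid2-labelled and wild-type libraries that did not overlap, which held for 25.5% of all tested genes. Since Bbox1 was chosen on this difference, nothing is read from that count. It fell to 0 when any 1 of the 6 Arid2-labelled or wild-type libraries was left out. For Smarcb1-labelled over wild type, 0 of 8 passed edgeR's test, against 7.9% of all genes, and 0 of 8 had groups that did not overlap, against 33.7%. In that comparison 1 of 8 had an unadjusted p under 0.05 with edgeR (Bbox1, which DESeq2 also called), as did 4850 of all 17079 tested genes. For Arid2-labelled over Smarcb1-labelled, 1 of 8 (Bbox1) was past the threshold, against 16.3% of all genes, and of the other 7 none was. Of these 7, Cpt1b and Crat, 2 genes, had an unadjusted p under 0.05 with edgeR, as did 6120 of all 17079 tested genes. DESeq2 called Crat, 1 gene. Groups that did not overlap were found for 4 of 8 in that comparison (Bbox1, Cpt1b, Cpt2 and Crat, all higher in the Arid2-labelled libraries), against 38.8% of all genes. The median log2 fold changes of the 8 genes were 0.14, -0.19 and 0.44 in the 3 comparisons in this order, beside 0.02, 0.05 and -0.003 over all tested genes. Without Bbox1, the medians of the other 7 were 0.04, -0.27 and 0.22. Each pair of comparisons shares a group of libraries, and the Arid2-labelled libraries of the last one are those on which the set was chosen.

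**Figure D3:**
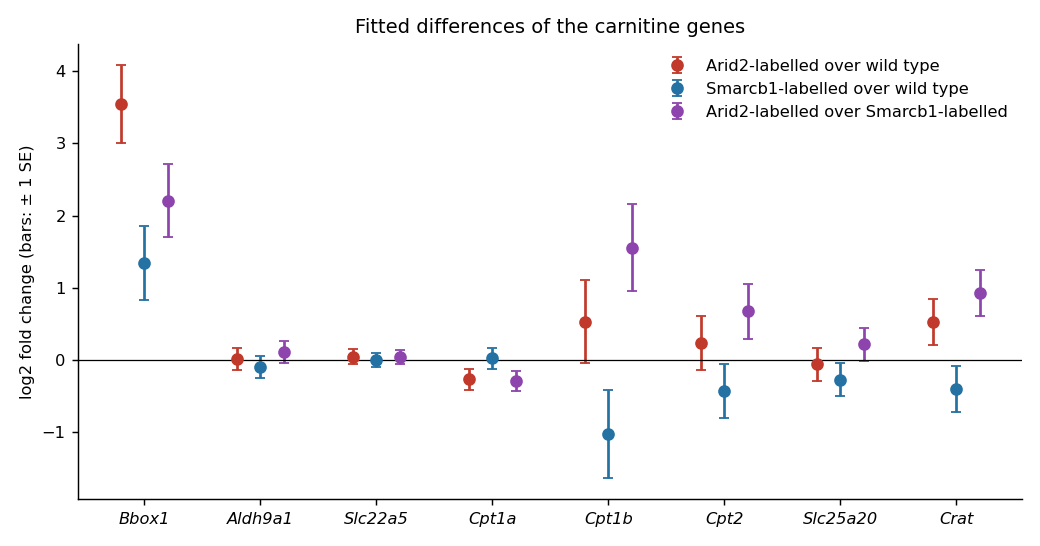
Log2 fold change (y axis, bars ± 1 SE from the edgeR fit of all 9 libraries) of the 8 carnitine genes for Arid2-labelled over wild type, Smarcb1-labelled over wild type and Arid2-labelled over Smarcb1-labelled. Bbox1 stands at 3.55, 1.35 and 2.20 in these comparisons, while Aldh9a1 and Slc22a5 lie within 0.11 of 0 in all of them.

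In the synthesis and uptake arms, the other genes were level. Aldh9a1, an aldehyde dehydrogenase that acts on the intermediate before gamma-butyrobetaine, stood at 75.1, 75.6 and 81.1 CPM in Arid2-labelled thyroids, 56.6, 69.2 and 88.9 CPM in Smarcb1-labelled thyroids, and 74.8, 70.3 and 85.0 CPM in wild-type thyroids. The groups overlapped, and the Smarcb1-labelled libraries were the most spread. Its log2 fold change for Arid2-labelled over wild type was 0.01 (SE 0.16). For Smarcb1-labelled over wild type it was -0.10 (95% interval -0.45 to 0.25, edgeR adjusted p = 0.704), and for Arid2-labelled over Smarcb1-labelled 0.11 (-0.24 to 0.46, edgeR adjusted p = 0.639). Slc22a5, the sodium-coupled carnitine transporter whose loss causes systemic carnitine deficiency, was at 28.7, 29.7 and 30.8 CPM in Arid2-labelled thyroids, 30.4, 26.5 and 29.7 CPM in Smarcb1-labelled thyroids, and 27.8, 27.3 and 31.5 CPM in wild-type thyroids. Its highest library was 1.19 times its lowest, the smallest such ratio of the 8 genes, against 29.7 times for Bbox1. The interval of the log2 difference of Slc22a5 ran from -0.23 to 0.23 for Smarcb1-labelled over wild type (log2 fold change 0.00054, edgeR adjusted p = 0.998) and from -0.18 to 0.27 for Arid2-labelled over Smarcb1-labelled (0.04, edgeR adjusted p = 0.782).

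Bbox1 and Slc22a5, picked as the most and the least variable genes of the set, lay far apart in promoter base composition. RefSeq's promoter windows (GRCm38.p6, 250 bases before to 50 after the start) are printed for both to show this, 5′ to 3′ on the gene's strand with each CpG in capitals.
Bbox1, chr2:110305676-110305975, minus strand: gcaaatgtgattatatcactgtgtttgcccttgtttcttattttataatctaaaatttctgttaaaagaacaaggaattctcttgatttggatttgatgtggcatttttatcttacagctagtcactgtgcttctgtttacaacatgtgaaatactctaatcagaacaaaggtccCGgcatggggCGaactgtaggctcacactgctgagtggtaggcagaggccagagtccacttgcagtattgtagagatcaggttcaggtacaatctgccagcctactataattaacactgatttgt
Slc22a5, chr11:53891654-53891953, minus strand: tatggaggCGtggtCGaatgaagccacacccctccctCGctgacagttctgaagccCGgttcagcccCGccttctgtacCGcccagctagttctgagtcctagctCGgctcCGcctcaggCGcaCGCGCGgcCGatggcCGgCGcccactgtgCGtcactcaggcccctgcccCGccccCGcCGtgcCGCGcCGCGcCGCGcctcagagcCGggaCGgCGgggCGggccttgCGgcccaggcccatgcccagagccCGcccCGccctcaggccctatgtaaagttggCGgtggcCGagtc
The Bbox1 window held 2 CpG and 39.33% G and C, and the Slc22a5 window 34 CpG and 72.67%. The windows of Aldh9a1, Cpt1a, Cpt2 and Slc25a20 held 9, 22, 17 and 13 CpG. Cpt1b and Crat are named without a window. Aldh9a1 and Cpt1a, with 9 and 22 CpG, each had a highest library 1.57 times the lowest. For Cpt2 and Slc25a20, with 17 and 13 CpG, the ratio was 3.08 and 1.96. A link of base composition with variability was not tested. Over all 32851 windows the median was 7 CpG, and 23.3% held no more than that of Bbox1. The motif AGGTCA, bound by nuclear receptors such as PPAR alpha, was searched on both strands. It was in the window of 1 of the 6 genes, Cpt1a, with its first base at -94 from the start, and in 16.3% of all windows; a pair of such motifs spaced by any 1 base (AGGTCANAGGTCA) was in 0 of 6, against 0.0396% of all windows. The pair is so rare over all windows that its absence from 6 windows says nothing about these genes. These are matches of letters and not tests of binding, and the authors' build (mm9) is another one.

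At the outer mitochondrial membrane, Cpt1a, the liver-type carnitine palmitoyltransferase and the regulated entry step, was the most abundant of the Cpt1 genes. It stood at 123.0, 105.3 and 101.0 CPM in Arid2-labelled thyroids, 112.5, 132.8 and 158.2 CPM in Smarcb1-labelled thyroids, and 146.1, 120.9 and 129.8 CPM in wild-type thyroids. The Arid2-labelled values were the lowest as a group and overlapped with both other groups. The log2 fold change was -0.27 (SE 0.14) for Arid2-labelled over wild type. It was 0.02 (-0.30 to 0.35, edgeR adjusted p = 0.932) for Smarcb1-labelled over wild type, and -0.29 (-0.62 to 0.03, edgeR adjusted p = 0.177) for Arid2-labelled over Smarcb1-labelled. Cpt1a was thus the one carnitine gene with a negative value in the last comparison.

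Cpt1b, the isoform of muscle and brown fat, was low throughout. It had 105, 44 and 80 reads (1.16, 0.689 and 1.29 CPM) in Arid2-labelled thyroids, 6, 22 and 15 reads (0.153, 0.498 and 0.406 CPM) in Smarcb1-labelled thyroids, and 23, 8 and 42 reads (0.698, 0.228 and 1.25 CPM) in wild-type thyroids. All Arid2-labelled libraries were above all Smarcb1-labelled ones, and the wild-type libraries, at 0.228 to 1.25 CPM, overlapped with both. The log2 fold change was 0.53 (SE 0.57) for Arid2-labelled over wild type, -1.03 (-2.41 to 0.36, edgeR adjusted p = 0.297) for Smarcb1-labelled over wild type, and 1.56 (0.20 to 2.91, edgeR adjusted p = 0.0994) for Arid2-labelled over Smarcb1-labelled. Its share of the reads of Cpt1a and Cpt1b together went no lower than 0.136% (95% Wilson interval 0.0621% to 0.295%) in Smarcb1-labelled replicate 1 and no higher than 1.26% (1.01% to 1.56%) in Arid2-labelled replicate 3. The intervals cover counting error only. The genes closest to Cpt1b by the same measure of likeness were Vim (0.11), an intermediate filament gene, Auh (0.12) of leucine breakdown, Ndufa10 (0.13) and Atp5b (0.14) of the respiratory chain and ATP synthase, and Sgcb (0.13), a sarcoglycan of muscle membranes. At such low counts log2(CPM + 1) compresses the differences, so this likeness weighs little.

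Slc25a20, the carnitine-acylcarnitine translocase, stood at 73.9, 74.6 and 97.9 CPM in Arid2-labelled thyroids, 58.8, 70.0 and 83.3 CPM in Smarcb1-labelled thyroids, and 79.4, 62.2 and 115.1 CPM in wild-type thyroids. All groups overlapped. The log2 fold change was -0.06 (SE 0.23) for Arid2-labelled over wild type, -0.27 (-0.79 to 0.24, edgeR adjusted p = 0.450) for Smarcb1-labelled over wild type and 0.22 (-0.30 to 0.73, edgeR adjusted p = 0.522) for Arid2-labelled over Smarcb1-labelled.

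Cpt2, the inner-membrane carnitine palmitoyltransferase, stood at 58.1, 65.4 and 99.9 CPM in Arid2-labelled thyroids, 34.0, 51.2 and 55.0 CPM in Smarcb1-labelled thyroids, and 44.5, 40.0 and 104.8 CPM in wild-type thyroids. The Arid2-labelled libraries lay above the Smarcb1-labelled ones, and wild-type replicate 3 was above all other libraries. The log2 fold change was 0.24 (SE 0.37) for Arid2-labelled over wild type, and 0.82 without wild-type replicate 3. It was -0.43 (-1.28 to 0.41, edgeR adjusted p = 0.470) for Smarcb1-labelled over wild type, and turned to 0.14 without wild-type replicate 3. Against the Smarcb1-labelled libraries, the Arid2-labelled ones gave 0.67 (-0.18 to 1.52, edgeR adjusted p = 0.228).

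Crat, the acetyltransferase that buffers acetyl groups as acetylcarnitine, stood at 103.1, 114.5 and 169.1 CPM in Arid2-labelled thyroids, 46.5, 86.4 and 70.0 CPM in Smarcb1-labelled thyroids, and 74.9, 62.6 and 130.2 CPM in wild-type thyroids. The Arid2-labelled libraries were all above the Smarcb1-labelled ones and overlapped with wild type through its replicate 3. The log2 fold change was 0.53 (SE 0.32) for Arid2-labelled over wild type, and 0.91 without wild-type replicate 3. For Smarcb1-labelled over wild type it was -0.40 (-1.12 to 0.32, edgeR adjusted p = 0.432), and -0.03 without wild-type replicate 3. Arid2-labelled over Smarcb1-labelled gave 0.93 (SE 0.32, 0.21 to 1.65), the nearest to the threshold of the 7 genes that were tested there (edgeR adjusted p = 0.0751). It passed with DESeq2 (adjusted p = 0.0170), without both thymus-marked libraries (1.29, edgeR adjusted p = 0.0434) and without Smarcb1-labelled replicate 2 (1.15, edgeR adjusted p = 0.0486), and it fell to 0.22 with the brown fat marker level as a covariate and 0.31 with the parathyroid marker level. Reads of Crat and of Dolpp1, an overlapping gene of the table, cannot be told apart where they overlap without strand, so its level is uncertain to that extent; lncRNA genes likewise overlap Bbox1, Cpt1a and Cpt1b.

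The shuttle genes and the fat markers were compared library by library. Among the Arid2-labelled libraries, 6 of 8 carnitine genes (all but Bbox1 and Cpt1a) were highest in replicate 3, and among the wild-type libraries the same 6 were highest in replicate 3; these libraries had the highest brown fat sums of their groups, and the highest sums of 5 white fat markers. Over all tested genes, 37.4% were highest in that Arid2-labelled library and 36.8% in that wild-type library. Ucp1, the uncoupling protein that defines brown fat, was at 222, 299 and 494 CPM in Arid2-labelled thyroids, 27.4, 149 and 125 CPM in Smarcb1-labelled thyroids, and 77.4, 85.4 and 691 CPM in wild-type thyroids. Cidea, a lipid droplet gene of brown fat, had its lowest value, 15.1 CPM, in the same library as Ucp1, Smarcb1-labelled replicate 1. In that library Aldh9a1, Cpt1a, Cpt1b, Cpt2, Slc25a20 and Crat were also at their lowest of the Smarcb1-labelled group. The brown fat sum of that group was highest in replicate 2, as were Cpt1b and Crat, whereas Aldh9a1, Cpt1a, Cpt2 and Slc25a20 were highest in replicate 3. White fat sums were 333.6, 395.5 and 588.4 CPM in Arid2-labelled thyroids, 181.2, 219.7 and 401.1 CPM in Smarcb1-labelled thyroids, and 442.9, 212.6 and 592.1 CPM in wild-type thyroids.

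By the root-mean-square difference of log2(CPM + 1) deviations, the brown fat marker mean was nearest to Crat (0.50) and Cpt2 (0.53) and farthest from Bbox1 (1.31). Crat and Cpt2 lay close to each other, at 0.19. These distances describe 9 libraries that share their tissue content and carry no p. They also depend on how much each gene varies, so that of Bbox1 was bound to be large. With the brown fat level as a covariate, the log2 fold change of Cpt2 for Arid2-labelled over wild type was -0.07 and that of Crat 0.21. That of Bbox1 was 3.56, although Bbox1 was no longer past the threshold in that fit. The part of brown or white fat in the levels of the shuttle genes was not tested beyond these values.

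**Figure D4:**
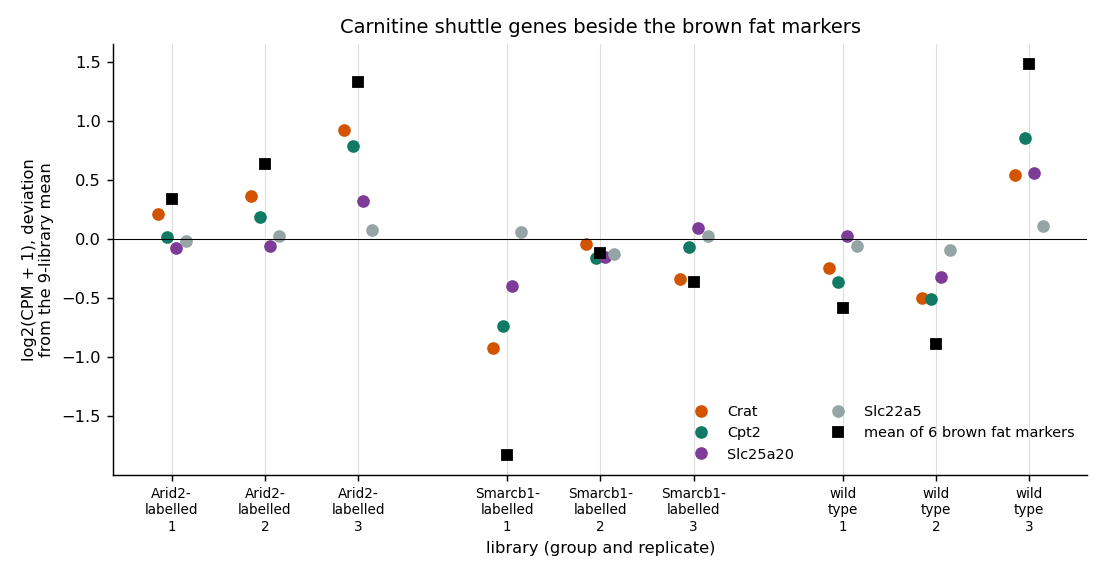
Deviation of log2(CPM + 1) from the 9-library mean (y axis) of Crat, Cpt2, Slc25a20 and Slc22a5 and of the mean of 6 brown fat markers, in each library. Crat and Cpt2 are high where the brown fat markers are high, in Arid2-labelled replicate 3 and wild-type replicate 3, and low in Smarcb1-labelled replicate 1, while Slc22a5 stays near 0.

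Divided by transcript length, 5 genes formed a top group and Slc22a5, Bbox1 and Cpt1b lay below it. On the scale of CPM per kb of the longest annotated transcript, Cpt2, Crat, Slc25a20, Aldh9a1 and Cpt1a averaged 31.4, 30.5, 29.9, 27.3 and 25.4 in the Arid2-labelled libraries, in that order. In the Smarcb1-labelled libraries the order was Cpt1a, Slc25a20, Aldh9a1, Cpt2 and Crat, at 31.2, 25.7, 25.3, 19.7 and 16.0. In the wild-type libraries it was Slc25a20, Cpt1a, Aldh9a1, Cpt2 and Crat, at 31.1, 30.6, 27.1, 26.6 and 21.1. Neighbours among these 5 overlapped over libraries in every group, although Cpt2 was above Crat in 3 of 3 libraries of every group. Within single groups, Slc25a20 was above Aldh9a1 in 3 of 3 Arid2-labelled libraries, Cpt1a above Slc25a20 and Aldh9a1 above Cpt2 in 3 of 3 Smarcb1-labelled libraries, and Cpt1a above Aldh9a1 in 3 of 3 wild-type libraries; the other neighbours changed places between libraries. Slc22a5 came next in each group, at 9.71, 9.43 and 9.42 CPM per kb in the Arid2-labelled, Smarcb1-labelled and wild-type libraries, with no overlap with the genes above or below it. Bbox1 averaged 4.29 in the Arid2-labelled, 0.930 in the Smarcb1-labelled and 0.366 CPM per kb in the wild-type libraries, and Cpt1b 0.360, 0.122 and 0.250. The ranges of Bbox1 and Cpt1b overlapped in wild type alone. Even in the Arid2-labelled libraries, the level of Bbox1 per length stayed below that of Slc22a5.

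Genes of the wider pathway were read from lists in the same fits. The counts called in each list stand beside 0.556%, 7.9% and 16.3% of all tested genes called in the 3 comparisons, and nothing is called particular to a list. Counts at an unadjusted p under 0.05 with edgeR stand beside 2541, 4850 and 6120 of all 17079 tested genes in the same order. The carnitine relatives were the brain isoform Cpt1c, the peroxisomal octanoyltransferase Crot and other transporters of carnitine or related substrates (Slc22a4, Slc22a21, Slc22a16 and Slc25a29). Of their 6 genes, 5 were tested and none passed edgeR's test in any comparison, with unadjusted p under 0.05 for 0, 2 and 2 of them in the 3 comparisons; Slc22a16 had 0 counts. Crot stood at 53.4, 53.8 and 46.4 CPM in Arid2-labelled thyroids, 83.9, 55.1 and 63.5 CPM in Smarcb1-labelled thyroids, and 48.5, 54.3 and 54.0 CPM in wild type. Cpt1c stood at 8.01, 8.98 and 10.8 CPM in Arid2-labelled thyroids, 5.57, 7.56 and 6.58 CPM in Smarcb1-labelled thyroids, and 10.5, 9.93 and 9.28 CPM in wild type, with a log2 fold change of -0.59 for Smarcb1-labelled over wild type (edgeR adjusted p = 0.0708). The Smarcb1-labelled values of Cpt1c were below all others.

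Fatty acid entry and activation, the steps before Cpt1, had 11 tested genes. None passed for Arid2-labelled over wild type, 1 was higher and 1 lower for Smarcb1-labelled over wild type, and 1 was higher and 2 lower for Arid2-labelled over Smarcb1-labelled. Acsl4, an acyl-CoA synthetase that prefers arachidonic acid, rose in the Smarcb1-labelled libraries to 146, 75.1 and 98.9 CPM, against 29.4, 48.3 and 30.4 CPM in wild type (log2 fold change 1.56, SE 0.32, edgeR adjusted p = 0.0229), a call kept in 14 of 20 alternatives. Slc27a1, a fatty acid transport protein, fell to 55.7, 82.2 and 105 CPM in Smarcb1-labelled thyroids, against 176, 147 and 146 CPM in wild type (log2 fold change -0.95, SE 0.21, edgeR adjusted p = 0.0289; kept in 12 of 20). Between the labelled groups (Arid2-labelled over Smarcb1-labelled), Slc27a1 was higher (1.31, edgeR adjusted p = 0.00873), and Acsl4 (-1.81, edgeR adjusted p = 0.0117) and Acsl3, another acyl-CoA synthetase (-0.78, edgeR adjusted p = 0.0162), were lower.

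Mitochondrial beta-oxidation, the pathway that the shuttle feeds, had 16 tested genes, of which none passed against wild type in either labelled group. Their unadjusted p was under 0.05 for 0 genes with the Arid2-labelled and 4 with the Smarcb1-labelled libraries, and their medians were 0.07 and -0.22. For Arid2-labelled over Smarcb1-labelled, where 16.3% of all tested genes were called, 2 of 16 were higher and none lower, with a median of 0.32: Eci1, an enoyl-CoA isomerase (0.62, edgeR adjusted p = 0.0488), and Etfb, a subunit of the electron transfer flavoprotein (0.83, edgeR adjusted p = 0.0422). These calls were kept in 6 and 9 of 20 alternatives. Within their groups, 16 of 16 were highest in Arid2-labelled replicate 3 and 15 of 16 in wild-type replicate 3, the libraries with the highest brown fat sums.

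Peroxisomal beta-oxidation had 9 tested genes and no call against wild type, with 2 and 1 at an unadjusted p under 0.05. Between the labelled groups, 2 were higher in Arid2-labelled thyroids, among them the thiolase gene Acaa1a (0.74, edgeR adjusted p = 0.0275), a call kept in 11 of 20 alternatives. Among the 5 genes of malonyl-CoA control, which sets the activity of Cpt1, no gene passed against wild type (0 and 2 at an unadjusted p under 0.05), and Prkaa1, a catalytic subunit of AMP-activated kinase, was lower for Arid2-labelled over Smarcb1-labelled (-0.51, edgeR adjusted p = 0.0291; kept in 9 of 20).

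Among 13 regulators and targets of PPAR signalling, none passed for Arid2-labelled over wild type, with 1 at an unadjusted p under 0.05, and 2 were lower for Smarcb1-labelled over wild type. Esrra, a nuclear receptor that drives mitochondrial genes, fell to 11.0, 18.6 and 14.8 CPM in Smarcb1-labelled thyroids, against 29.0, 31.2 and 38.1 CPM in wild type (log2 fold change -1.15, SE 0.19, edgeR adjusted p = 0.0134). The groups did not overlap, and the call was kept in 18 of 20 alternatives. Ppard, the delta receptor, fell to 13.7, 21.1 and 18.5 CPM, against 29.7, 26.5 and 26.0 CPM in wild type (-0.63, SE 0.16, edgeR adjusted p = 0.0449), a call kept in 6 of 20. In Arid2-labelled over Smarcb1-labelled thyroids, Esrra (1.18, edgeR adjusted p = 0.00968) and Ppard (0.84, edgeR adjusted p = 0.0139) were higher, and 1 gene of the list was lower. The 4 calls of these lists for Smarcb1-labelled over wild type (Acsl4, Slc27a1, Esrra and Ppard) were lost when the parathyroid marker level was a covariate; its 3 markers were higher in every Smarcb1-labelled than in every wild-type library, and their part in these calls was not tested. All 11 calls for Arid2-labelled over Smarcb1-labelled were lost when the parathyroid marker level was a covariate and likewise with that of brown fat, fits in which 145 and 90 genes were called in place of 2779.

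**Figure D5:**
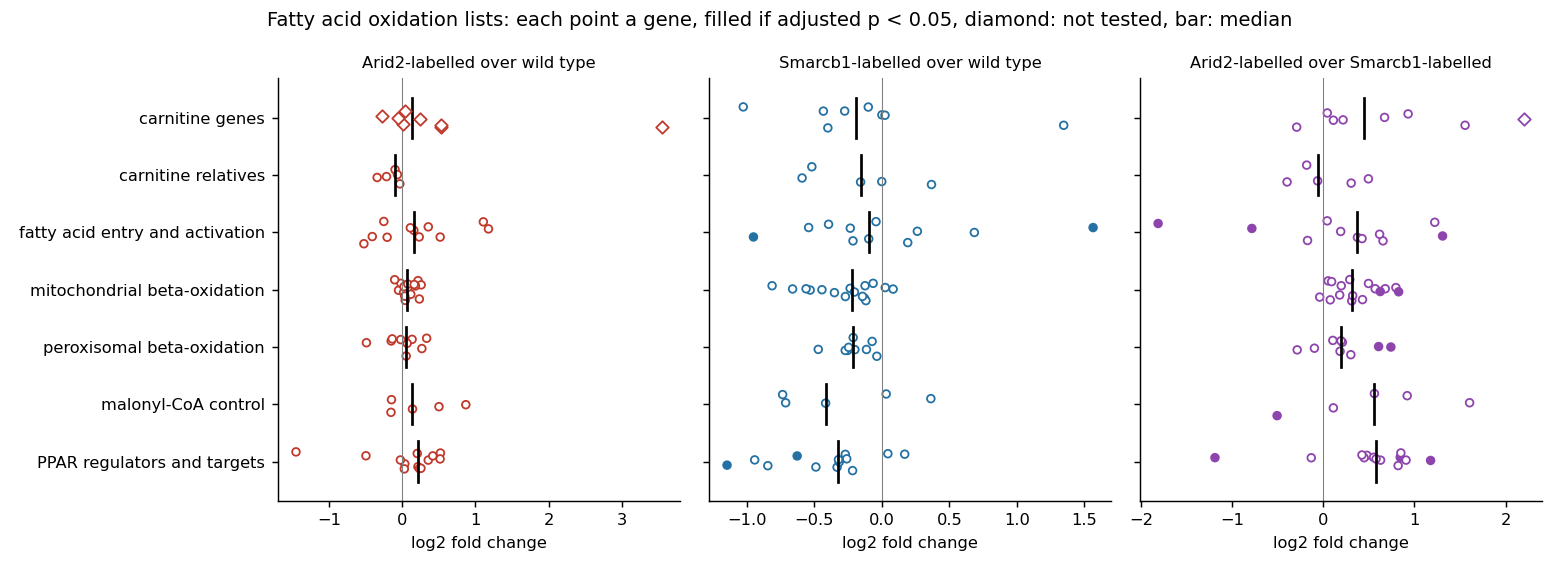
Log2 fold change (x axis) of each tested gene of the carnitine set and of 6 related lists in the 3 comparisons, with points filled at an adjusted p under 0.05, diamonds for carnitine genes that are a description without a test, and a bar at each list's median. Mitochondrial beta-oxidation has its median at 0.07, -0.22 and 0.32 in the 3 panels, and Bbox1 is the diamond at 3.55 and 2.20.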

How the data were processed

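The values used are raw read counts per gene of 9 libraries, as deposited by the authors, with no normalization. Per the labels' protocols, RNA was isolated with TRIzol and libraries were made with a TruSeq RNA kit; the build mm9 and the tools HTSeq 0.6.1, STAR 2.4 and DESeq2 are named, with no role, in the submitters' processing notes, and whether counting used strand is not given in the sources used here. Groups were taken from the genotype labels. A chi-square comparison of gene counts gave 47.6 to 122 per degree of freedom between replicates of a group, so none is a copy of another.

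Differences were tested with edgeR 4.0.16 in R 4.3.3 (quasi-likelihood F test; TMM factors; low counts filtered with filterByExpr) in 1 fit of 3 group means over all 9 libraries, with 6 residual degrees of freedom and a common dispersion of 0.0776. Calls were made below 0.05 after Benjamini-Hochberg adjustment over 17079 genes, and intervals are 95%. The step was tested on simulated counts with known changes.

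Alternatives were DESeq2 size factors, upper-quartile scaling, no filter, the DESeq2 1.42.0 Wald test, limma-voom (limma 3.58.1), the 6 libraries compared alone, removal of each library's GC trend (GC known for 97.2% of tested genes), covariates of parathyroid, skeletal muscle or brown fat markers, omission of both thymus-marked libraries, and each library left out. Named are all carnitine genes, the called genes of each pathway list, the first markers of the marker lists that bear on a result, the 5 genes of mean log2(CPM + 1) of at least 1 most like Bbox1 and Cpt1b, and the 3 protein-coding genes on each side of Bbox1; Crot and Cpt1c, among the carnitine relatives, and markers beyond the first of a list were named after their values were seen. Some genes that this rule would name are not reported here. The members and lists were chosen with earlier results of these data known. Promoter windows and neighbours are RefSeq's for GRCm38.p6, a build other than mm9. Transcript lengths and GC were taken from GENCODE sequences instead.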

Additional observations from a re-analysis of the deposited data

How the results depend on the processing

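Bbox1 was higher in the Arid2-labelled than in the wild-type libraries in every alternative run, but its call was lost, for 0 of 8 carnitine genes, with the skeletal muscle covariate, the brown fat covariate (chosen after seeing the data) and both thymus-marked libraries left out; leaving out single libraries gave 0 to 1. Genes called there numbered 95, against 228 with the GC trend removed, 33 with the muscle and 46 with the brown fat covariate, 56 without the thymus-marked libraries, 201 with the 6 libraries alone, 882 with DESeq2's test, and 5 to 167 with single libraries left out. For Smarcb1-labelled over wild type, 1349 genes became 398 with the GC trend removed, 197 with the parathyroid and 812 with the brown fat covariate, 2166 without the thymus-marked libraries, 486 with the 6 libraries, 2768 with DESeq2's test and 344 to 2538 with single libraries left out; DESeq2 called 1 carnitine gene in place of 0. For Arid2-labelled over Smarcb1-labelled, 2779 genes became 1063, 145, 918 and 90 with the GC trend and the parathyroid, muscle and brown fat covariates, 1348 with the 6 libraries, 4337 with DESeq2's test and 395 to 4411 with single libraries left out. Carnitine genes called there (1) were 0 with the parathyroid and brown fat covariates, 2 without the thymus-marked libraries and by DESeq2, and 0 to 2 with single libraries left out. The fold of Cpt2 for Arid2-labelled over wild type was 0.82 without wild-type replicate 3. Signs turned only for uncalled values. For Smarcb1-labelled over wild type, the parathyroid covariate gave 0.027 for Aldh9a1, -0.016 for Cpt1a, 0.38 for Cpt2, 0.16 for Slc25a20 and 0.21 for Crat; the brown fat covariate gave 0.013 for Aldh9a1 and 0.11 for Cpt2; Cpt1a was -0.011 without the thymus-marked libraries. Slc22a5 was -0.016 with DESeq2's size factors and test, -0.023 unfiltered, -0.086 with the GC trend removed, -0.022 with the 6 libraries and -0.00072 with limma-voom. Leaving out single libraries gave -0.29 to 0.042 for Aldh9a1, -0.040 to 0.066 for Slc22a5, -0.11 to 0.14 for Cpt1a and -0.68 to 0.14 for Cpt2. For Arid2-labelled over Smarcb1-labelled, the parathyroid and brown fat covariates gave -0.023 and -0.12 for Aldh9a1, -0.050 and -0.014 for Slc22a5, -0.096 and -0.18 for Cpt2, and -0.22 and -0.26 for Slc25a20; leaving out single libraries gave -0.032 to 0.30 for Aldh9a1 and -0.014 to 0.083 for Slc22a5. The cause of these shifts was not tested. No paired analysis was possible because the labels give the groups no shared replicate numbers. Cpt1b, at 6 to 105 reads, is limited by depth.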
